A study of Mus musculus with 6 samples.

Results

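Heat shock chaperones are proteins that bind unfolded or partly folded proteins and help them reach or regain their shape. The 10 genes described here, of 48820 in the deposited table, encode the cytosolic HSP70 proteins (Hspa1a, Hspa1b, Hspa8), the HSP110 protein Hsph1, the HSP90 protein Hsp90aa1, the J-domain protein Dnajb1, the small heat shock protein Hspb1, the mitochondrial chaperonin pair Hspd1 and Hspe1, and the transcription factor Hsf1. They were found by matching the table's Ensembl identifiers to these symbols in GENCODE mouse release M21, and all 10 were present. They were picked on their CPM in single libraries, since several place WT 2 and dKO 3, the second wild-type and the third knockout library, away from the rest of each group. The values of single libraries are therefore a description, without a test.

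RNA-seq was done on spheroids of 4T1, an established line of mouse mammary carcinoma cells, grown in RPMI with serum. The labels give 3 libraries as wild type (WT 1 to WT 3) and 3 from cells in which both LATS1 and LATS2 were knocked out (dKO 1 to dKO 3), kinases that restrain YAP and TAZ in Hippo signalling. The labels call them biological replicates and name neither clones nor separate cultures, so a p-value here reflects how far these libraries vary, which may be technical variation. Values of a group follow the order of its libraries. Levels are TMM-scaled CPM, a library's counts of a gene relative to its total, and differences between genotypes are log2 values, labelled dKO minus WT, from edgeR's quasi-likelihood test with Benjamini-Hochberg adjustment over all 15807 tested genes.

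In the heat shock response, misfolded proteins draw chaperones away from HSF1, which then forms trimers and binds heat shock elements, inverted repeats of the unit GAA, in the promoters of chaperone genes. HSP70 proteins bind and release client proteins in a cycle driven by ATP, in which J-domain proteins start the hydrolysis of ATP and HSP110 and BAG proteins act as exchange factors that free the nucleotide. HSP90 completes the folding of kinases and receptors, and the HSP60 and HSP10 proteins of Hspd1 and Hspe1 form the folding chamber of the mitochondrial matrix.

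Totals ran from 38194478 to 49630116 counts per library. Lats1 ran from 146 to 158 CPM over the WT libraries and from 48.0 to 53.0 CPM over those labelled dKO, whereas Lats2 was higher in the latter (63.5 to 86.7 CPM) than in WT (22.7 to 30.5 CPM). A small edit can leave the amount of mRNA intact, so this level is no check of the Lats2 knockout, and every genotype difference below is between libraries as labelled. On the second principal component, which held 4.82% of the variance, WT 2 lay at -23.5 against 8.25 and 13.9 for WT 1 and WT 3, and dKO 3 at 19.7, with dKO 1 and dKO 2 at -9.14 and -9.21. All 8 epithelial markers listed for the labelled tumour cell type were detected, summing to 5638 to 5730 CPM in WT, and to 4351 to 4957 CPM where dKO is the label. Ptprc, the pan-leukocyte marker, was at 0 in every WT library and in dKO 3 and at 0.42 CPM or less in the others. The list of 10 leukocyte markers as a whole went the other way. It summed to 3.30 to 16.4 CPM in WT and to 77.2 to 209.0 CPM in the libraries labelled dKO, where Csf1r (62.7 to 189.6 CPM) gave most of it. All 3 tested markers of that list were called higher.

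The stress-inducible HSP70 genes and their HSP110 partner carried the library pattern. Hspa1a (ENSMUSG00000091971, GRCm38 chromosome 17, 34969190 to 34972156) and Hspa1b (ENSMUSG00000090877, chromosome 17, 34956436 to 34959238) are neighbouring copies that encode the HSP70 protein induced by heat and other stress. Their coding sequences, of 1926 and 1929 bases in GENCODE M21, were 99.4% identical, with 8 substitutions, 3 gap bases and a longest identical stretch of 638 bases. Coding reads that cover none of these differences, in that stretch or elsewhere, cannot be assigned to either copy. The values of the copies are thus not separate measurements, and Hspa1a also overlaps Gm20481 on the other strand. The promoters of both copies are shown because they moved together in every library and are nearly the same sequence. Of the 250 bases before the start site (RefSeq, GRCm38.p6, minus strand, chr17:34972157-34972406 for Hspa1a and chr17:34959239-34959488 for Hspa1b), 3 differ, C44T, T47C and T249G from Hspa1a to Hspa1b, with positions counted from the 5′ end of the sequences shown. Capitals mark a paired heat shock element, which begins 104 bases before the start site in both.
Hspa1a: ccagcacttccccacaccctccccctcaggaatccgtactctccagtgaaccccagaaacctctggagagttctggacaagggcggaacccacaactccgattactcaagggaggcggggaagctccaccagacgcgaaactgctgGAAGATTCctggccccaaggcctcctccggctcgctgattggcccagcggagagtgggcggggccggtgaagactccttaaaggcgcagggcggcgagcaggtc
Hspa1b: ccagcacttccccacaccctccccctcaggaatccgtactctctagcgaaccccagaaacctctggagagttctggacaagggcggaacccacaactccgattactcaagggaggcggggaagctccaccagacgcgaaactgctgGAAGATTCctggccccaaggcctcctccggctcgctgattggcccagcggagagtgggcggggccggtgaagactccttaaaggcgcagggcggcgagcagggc

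Hspa1b stood at 316, 869 and 236 CPM across WT 1 to 3, and at 394, 398 and 132 CPM across dKO 1 to 3. WT 2 was the highest of all 6 libraries and dKO 3 the lowest, and the ranges of the genotypes overlapped. Hspa1a followed the same order of WT 2 first and dKO 3 last at a lower level, with 68.6, 181 and 48.2 CPM in the WT libraries and 81.5, 76.5 and 27.1 CPM in those labelled dKO. For Hspa1b, WT 2 was 3.15 times the mean of WT 1 and WT 3, and dKO 3 was 0.334 times the mean of dKO 1 and dKO 2. The corresponding ratios for Hspa1a were 3.10 and 0.343. Hspa1a took 16.1% to 17.8% of the counts of the pair in every library, so the split between the copies hardly varied while their sum ran from 159 CPM in dKO 3 to 1049.8 CPM in WT 2.

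Hsph1 (ENSMUSG00000029657, chromosome 5, 149614287 to 149636376) encodes HSP105, an HSP110 protein that serves HSP70 as an exchange factor. It was at 342, 1080.0 and 251 CPM across WT 1 to 3, and at 703, 711 and 316 CPM across dKO 1 to 3. WT 2 was 3.64 times the mean of the other WT libraries and dKO 3 was 0.447 times the mean of the others labelled dKO. Unlike the HSP70 pair, whose level in dKO 3 was below that of every WT library, Hsph1 in dKO 3 lay within the WT range. The promoter of Hsph1 is shown beside those of the HSP70 pair because it has a different arrangement of elements. Hsph1 mRNA was also highest in WT 2 and, among the libraries labelled dKO only, lowest in dKO 3. In the 250 bases before the start site (RefSeq, GRCm38.p6, chr5:149636337-149636586, minus strand) a paired element, in capitals, begins 33 bases before the start. A run of 3 units follows past the start site, at chr5:149636288-149636300.
Hsph1 promoter: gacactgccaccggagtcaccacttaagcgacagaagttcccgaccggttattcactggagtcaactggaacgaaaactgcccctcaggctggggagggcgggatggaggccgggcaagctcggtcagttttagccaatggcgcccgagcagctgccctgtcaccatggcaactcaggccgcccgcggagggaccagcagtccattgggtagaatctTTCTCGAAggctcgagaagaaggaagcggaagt
Hsph1 element past the start site: TTCTGGAAAGTTC

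**Figure D1:**
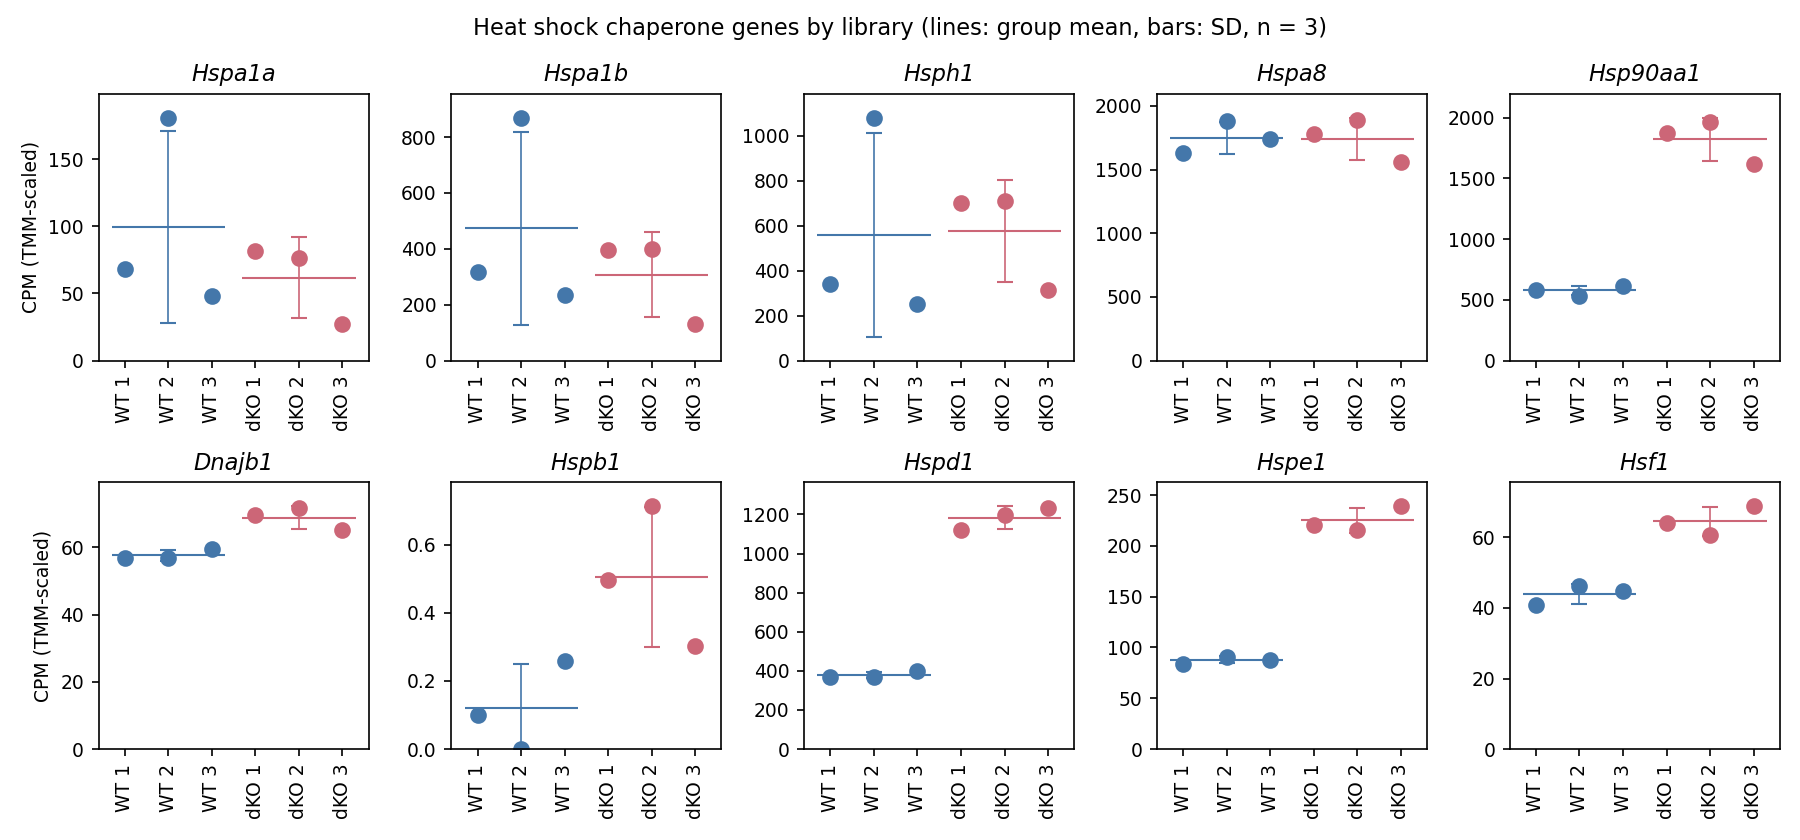
CPM of the 10 chaperone genes on the vertical axes in each of the 6 libraries on the horizontal axes, with 1 point per library, lines at the group mean and bars of 1 SD (n = 3). For Hspa1a, Hspa1b and Hsph1 WT 2 is the highest point (181, 869 and 1080.0 CPM), while Hsp90aa1, Hspd1, Hspe1, Dnajb1 and Hsf1 separate by genotype.

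The other members did not share this pattern. Of the 9 members with a mean of at least 5 CPM in both groups, WT 2 was at least 1.5 times above both other WT libraries for 3, the 2 Hspa1 copies and Hsph1, and below them by as much for 0. Among the 9939 genes at that level, 1.84% were as far above and 1.82% as far below in WT 2. In dKO 3 the same 3 members lay at least 1.5 times below both other libraries, where 1.76% of genes did, and 0 lay above, where 0.956% did. In the other 4 libraries between 0.0805% and 0.332% of genes were as far apart in 1 direction. At 2-fold the same 3 members stood apart in both libraries, as did 0.252% of genes. Over both libraries at once, 0.644% of the genes were above in WT 2 and below in dKO 3, against 0.0604% with the opposite signs. These members were chosen for these values, so nothing is read from their count. The remaining 6 members lay between 0.894 and 1.11 times the mean of the other WT libraries in WT 2, and between 0.845 and 1.1 times the mean of the others in dKO 3. Hspa8, the constitutive HSP70 gene (ENSMUSG00000015656, chromosome 9, 40800984 to 40810087), was at 1630, 1878 and 1739 CPM across WT 1 to 3 and at 1777, 1885 and 1561 CPM across dKO 1 to 3. Its order of libraries within each group was that of the inducible genes for the highest WT and the lowest dKO library, with departures of 0.16 and -0.23 on the log2 scale.

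**Figure D2:**
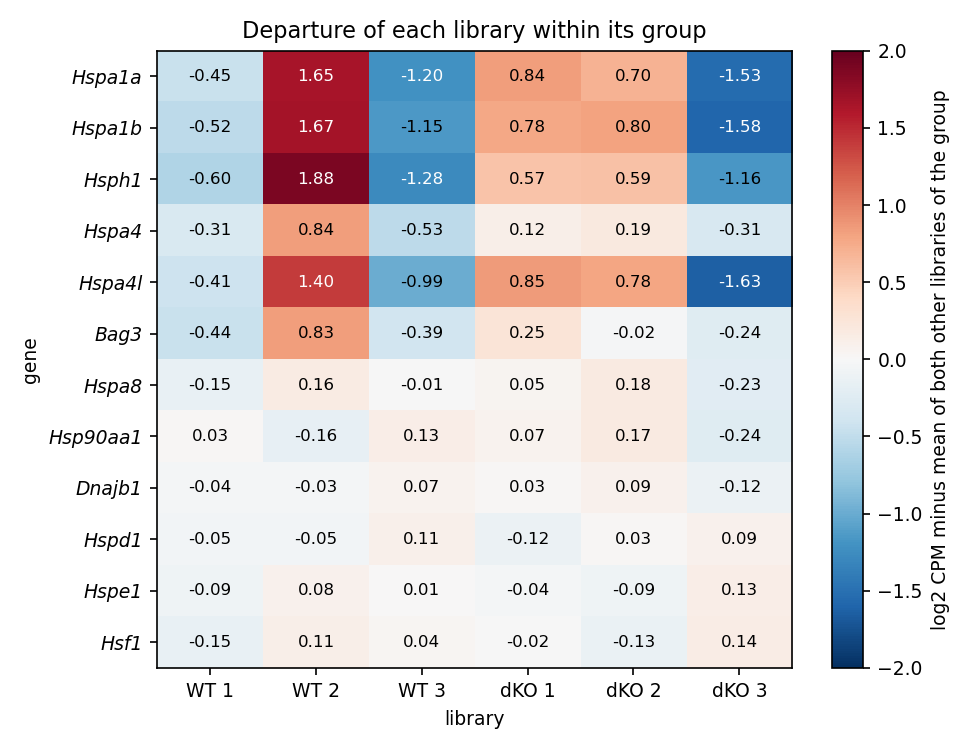
Departure of each library (columns) from the mean of both other libraries of its group, in log2 CPM, for 12 genes (rows), with the colour scale running from -2 to 2. Hspa1a, Hspa1b, Hsph1 and Hspa4l are positive in WT 2 (1.40 to 1.88) and negative in dKO 3 (-1.16 to -1.63), whereas Dnajb1, Hspd1, Hspe1 and Hsf1 run from -0.15 to 0.14 over the 6 libraries.

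Other genes of the HSP70 cycle were followed through lists of related genes. Hspa4l and Hspa4, which encode the other cytosolic HSP110 proteins, were also highest among WT libraries in WT 2. Hspa4l stood at 201, 464 and 154 CPM across WT 1 to 3 and at 627, 609 and 199.6 CPM across dKO 1 to 3, so that dKO 3 was 0.323 times the mean of the others. Hspa4 was at 402, 683 and 364 CPM in the WT libraries, and at 430.3, 444 and 351 CPM in those labelled dKO, where dKO 3 was 0.804 times the mean of the others. All 3 cytosolic HSP110 genes, Hsph1 included, were thus at least 1.5 times higher in WT 2 than in both other WT libraries. Of the 9939 genes with a mean of at least 5 CPM in both groups, 1.84% were. Hsph1 was picked for this value, and in dKO 3 Hspa4 was not 1.5 times below the others. Bag3, which encodes an exchange factor that links HSP70 to autophagy, was at 60.9, 109.7 and 62.3 CPM across WT 1 to 3, but at 47.3, 41.7 and 37.7 CPM across dKO 1 to 3, where dKO 3 was 0.846 times the mean of the others.

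Over the 102 listed genes of the heat shock response and of protein folding with a mean of at least 5 CPM in both groups, members left out, 4 were at least 1.5 times above both other libraries in WT 2 and 1 was below. The 4 were Hspa4l, Hspa4, Bag3 and Htra2, a mitochondrial protease gene at 40.5, 62.1 and 39.8 CPM across WT 1 to 3, and the gene below was Hspb11 (11.3, 6.97 and 14.4 CPM). In dKO 3, 2 were below both other libraries by as much and 0 above, namely Hspa4l and Dnajb9, an endoplasmic reticulum J-domain gene at 27.8, 24.2 and 14.5 CPM across dKO 1 to 3. Those shares are to be set beside 1.84%, 1.82% and 1.76% of all genes at that level. The median departure of these 102 genes was 0.06 in WT 2 and -0.06 in dKO 3 on the log2 scale, against -0.02 and 0.01 over all 9939 genes. The HSP90 genes and their co-chaperones, the cytosolic J-domain genes and the CCT and prefoldin subunits, which fold actin and tubulin, held 0 genes past 1.5 times in either library. Cryab, a small heat shock protein gene, was at 263, 266 and 165 CPM across dKO 1 to 3 and at 2.72, 5.83 and 2.03 CPM across WT 1 to 3. The level of Hsf2, a relative of Hsf1, was 38.5, 42.6 and 25.7 CPM across dKO 1 to 3, and that of Hspa13, an HSP70 relative, 74.0, 71.5 and 50.1 CPM.

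**Figure D3:**
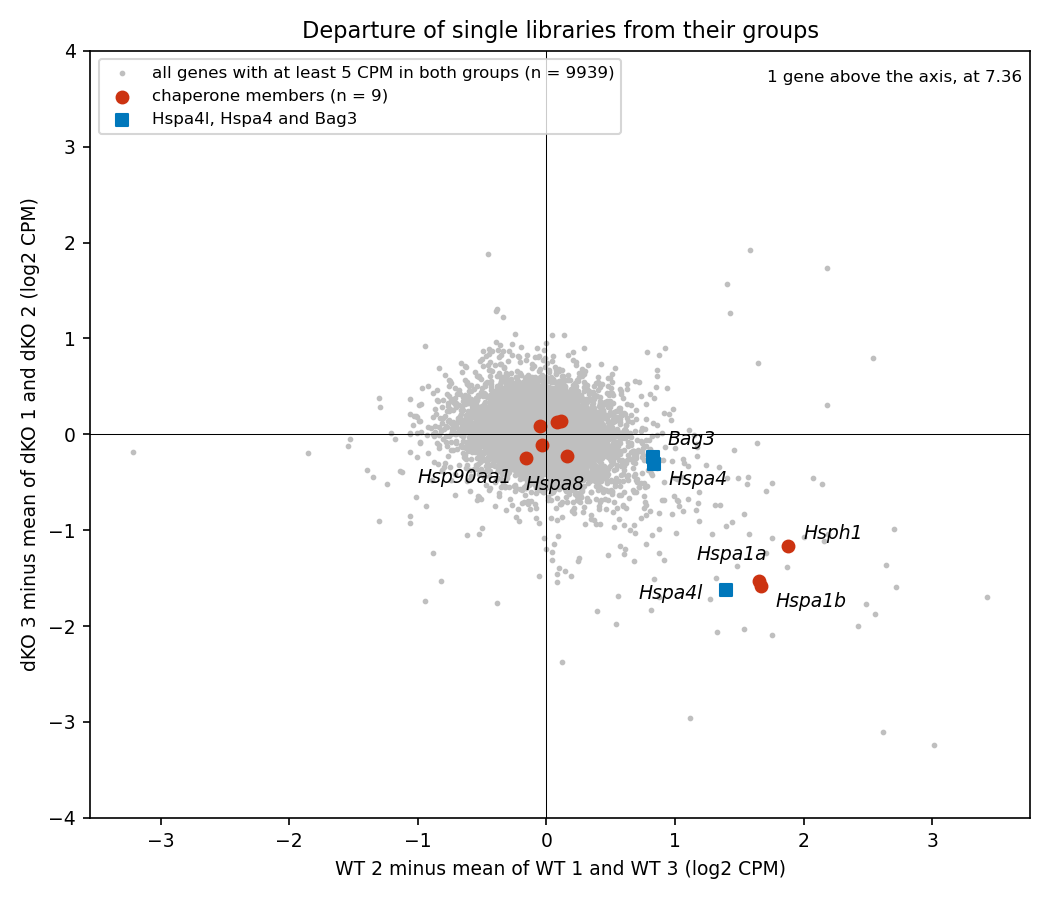
Departure of WT 2 from the mean of WT 1 and WT 3 (horizontal axis) and of dKO 3 from the mean of dKO 1 and dKO 2 (vertical axis), both in log2 CPM, with 1 point per gene for the 9939 genes with a mean of at least 5 CPM in both groups, of which 1, at 7.36, lies above the axis. Hspa1a, Hspa1b, Hsph1 and Hspa4l lie at the lower right, Hspa4 and Bag3 to the right with small vertical values, and the remaining chaperone genes lie near 0.

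Genes outside the members, listed genes included, were ranked by the likeness of their profile, which takes no account of its size. The mean profile of Hspa1a, Hspa1b, Hsph1 and Dnajb1 was compared over the 6 libraries with 10064 named genes with a mean of at least 5 CPM, of which 73 had a Pearson r above 0.9. The 8 most alike outside the members were Tnfsf9, a TNF family ligand gene (r = 0.994), Col8a1, a collagen gene (0.991), Pfkm, a phosphofructokinase gene (0.991), Gpr146 (0.987), Uqcc2, a gene for assembly of respiratory complex III (0.984), Alox12e, a lipoxygenase gene (0.981), Stom, the stomatin gene (0.972), and Gpx8, a peroxidase gene (0.965). Tnfsf9, for example, was at 11.8, 28.0 and 9.31 CPM across WT 1 to 3 and at 16.0, 16.9 and 8.38 CPM across dKO 1 to 3. Dnajb1 itself, though part of the profile, had an r of -0.04 with it, and Hspa8 had 0.838. Among listed genes, Hspa4 had 0.930, Hspa4l 0.789 and Bag3 0.617. An r over all 6 libraries also takes in differences between genotypes. Gpx8 and Gpr146 followed the mean profile with small differences, at 1.25 and 1.36 times the mean of the other WT libraries in WT 2. These values describe 6 libraries of 2 genotypes and carry no test.

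Some values of the whole libraries also set WT 2 and dKO 3 apart, in the same or the opposite direction, and others did so in part. The share of counts in 83 cytosolic ribosomal protein genes was 5.04%, 4.64% and 5.12% across WT 1 to 3 and 5.47%, 5.40% and 6.0% across dKO 1 to 3. It was thus lowest in WT 2 and highest in dKO 3 within their groups, opposite in direction to Hspa1a, Hspa1b and Hsph1. The share of the 13 mitochondrially encoded mRNAs was 2.69%, 2.70% and 2.83%, then 2.58%, 2.61% and 2.42%, in that order, so that dKO 3 was lowest in its group while WT 2 lay between WT 1 and WT 3. The summed level of 10 leukocyte markers was 5.80, 16.4 and 3.30 CPM, then 208.8, 209.0 and 77.2 CPM. Csf1r gave most of it in every library but WT 3, where it was at 1.01 CPM, with Cd3e, Ly6g and Tyrobp at 0 in every library. Their part in the chaperone values was not tested.

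Between genotypes, 5 of the 10 members rose in the libraries labelled dKO, 0 fell and 5 did not pass the test. All 10 passed the filter on low counts. Of all tested genes 57.3% were called, 28.6% as rises and 28.7% as falls, so a share of 5 in 10 is near that background. The median log2 fold change of the 10 members was 0.40 and that of the 9 with a mean of at least 5 CPM in both groups, Hspb1 left out, was 0.26, against -0.01 over all tested genes. The rises were those of Hsp90aa1, Hspd1, Hspe1, Hsf1 and Dnajb1, and for each of them the ranges of the genotypes did not overlap, as for 65.6% of tested genes. Hspa1a, Hspa1b and Hsph1 were among those that did not pass.

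Hsp90aa1 (ENSMUSG00000021270, chromosome 12, 110690605 to 110702728), the inducible cytosolic HSP90 gene, was at 584, 535 and 613 CPM across WT 1 to 3 and at 1873, 1965 and 1621 CPM across dKO 1 to 3. Every library labelled dKO was thus far above every WT library, with a log2 fold change of 1.66 ± 0.09 (SE, 3 libraries per group, edgeR adjusted p = 1.18e-06), or 3.15 times. The constitutive HSP90 gene Hsp90ab1 had a mean of 3378 ± 135 CPM in WT, against 2969 ± 202 CPM when labelled dKO (SD, 3 libraries each) and did not pass (log2 fold change -0.19, edgeR adjusted p = 0.0557). The level of Hsp90aa1 relative to that of Hsp90ab1 was therefore 0.166 to 0.175 in WT and 0.506 to 0.684 in the libraries labelled dKO, as ratios of CPM not scaled for length.

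The mitochondrial chaperonin genes rose together. Hspd1 (ENSMUSG00000025980, chromosome 1, 55077835 to 55088243), the HSP60 gene, was at 370.4, 370.6 and 399 CPM across WT 1 to 3 and at 1118, 1198 and 1233 CPM across dKO 1 to 3, a difference of 1.64 ± 0.07 on the log2 scale (edgeR adjusted p = 2.98e-07). Hspe1 (ENSMUSG00000073676, chromosome 1, 55088132 to 55091307), the HSP10 gene, was at 84.2, 91.1 and 88.2 CPM and at 220.4, 216 and 239 CPM in the same order, a difference of 1.36 ± 0.07 on the log2 scale (edgeR adjusted p = 8.7e-07). In neither gene did WT 2 or dKO 3 stand apart. The genes lie head to head and overlap, so without strand the reads of the shared stretch cannot be told apart, and the table holds 4 annotated Hspd1 pseudogenes with up to 50.6 CPM in sum. Their shared promoter is shown because both genes rose. It holds a run of 4 heat shock units, in capitals, in the 250 bases before the Hspe1 start site (RefSeq, GRCm38.p6, chr1:55087898-55088147, plus strand), and the same run lies before the inner of the 2 annotated Hspd1 start sites.
Hspe1 and Hspd1: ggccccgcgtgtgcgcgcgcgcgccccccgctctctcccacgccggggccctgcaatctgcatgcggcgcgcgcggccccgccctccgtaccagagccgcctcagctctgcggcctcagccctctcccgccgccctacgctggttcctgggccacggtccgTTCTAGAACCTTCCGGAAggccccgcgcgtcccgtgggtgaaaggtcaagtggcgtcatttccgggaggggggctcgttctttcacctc

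Hsf1 (ENSMUSG00000022556, chromosome 15, 76477422 to 76501913) was at 40.9, 46.2 and 44.7 CPM across WT 1 to 3 and at 64.0, 60.7 and 68.8 CPM across dKO 1 to 3, with every library labelled dKO above every WT library. Its log2 fold change stood at 0.55 ± 0.09 (edgeR adjusted p = 0.000628). HSF1 is controlled largely as a protein, so its mRNA level does not give its activity. Dnajb1 (ENSMUSG00000005483, chromosome 8, 83608193 to 83612653), whose J-domain protein works with the inducible HSP70, was at 56.7, 56.8 and 59.6 CPM across WT 1 to 3 and at 69.7, 71.8 and 65.2 CPM across dKO 1 to 3. That rise was small, with a difference of 0.26 ± 0.08 on the log2 scale (edgeR adjusted p = 0.0177), and the call was lost without WT 1, dKO 1 or dKO 2 (edgeR adjusted p = 0.0754, 0.0616 and 0.0695). In WT 2 its level was 0.976 times the mean of WT 1 and WT 3.

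The 5 members that did not pass fall into 3 kinds. Hspa8 differed little between genotypes, with means of 1749 ± 124 and 1741 ± 165 CPM (SD, n = 3), a difference of -0.01 ± 0.09 on the log2 scale (edgeR adjusted p = 0.958). Hspa1a, Hspa1b and Hsph1 had log2 fold changes of -0.68 ± 0.69, -0.62 ± 0.70 and 0.05 ± 0.69 (edgeR adjusted p = 0.447, 0.495 and 0.960), with coefficients of variation between libraries of 72.0%, 72.8% and 81.5% in WT and 48.7%, 49.4% and 39.1% in the libraries labelled dKO. The spread for which they were picked enters these errors. Without WT 2 and dKO 3, the libraries the choice rests on, 7 of 10 members were called higher, Hsph1 (1.25) and Hspa8 (0.12) added, while Hspa1a and Hspa1b were at 0.44 and 0.52. Called genes also rose to 62.3% of all those tested at that setting, and since the rule used these libraries nothing is read from the added calls. Hspb1 (ENSMUSG00000004951, chromosome 5, 135887919 to 135889563), the HSP27 gene, was near the limit of detection, with 5, 0 and 12 counts across WT 1 to 3 and 19, 29 and 13 counts across dKO 1 to 3, around the floor of 12 counts per library. It passed the filter through the libraries labelled dKO alone and was not called (edgeR adjusted p = 0.0999).

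**Figure D4:**
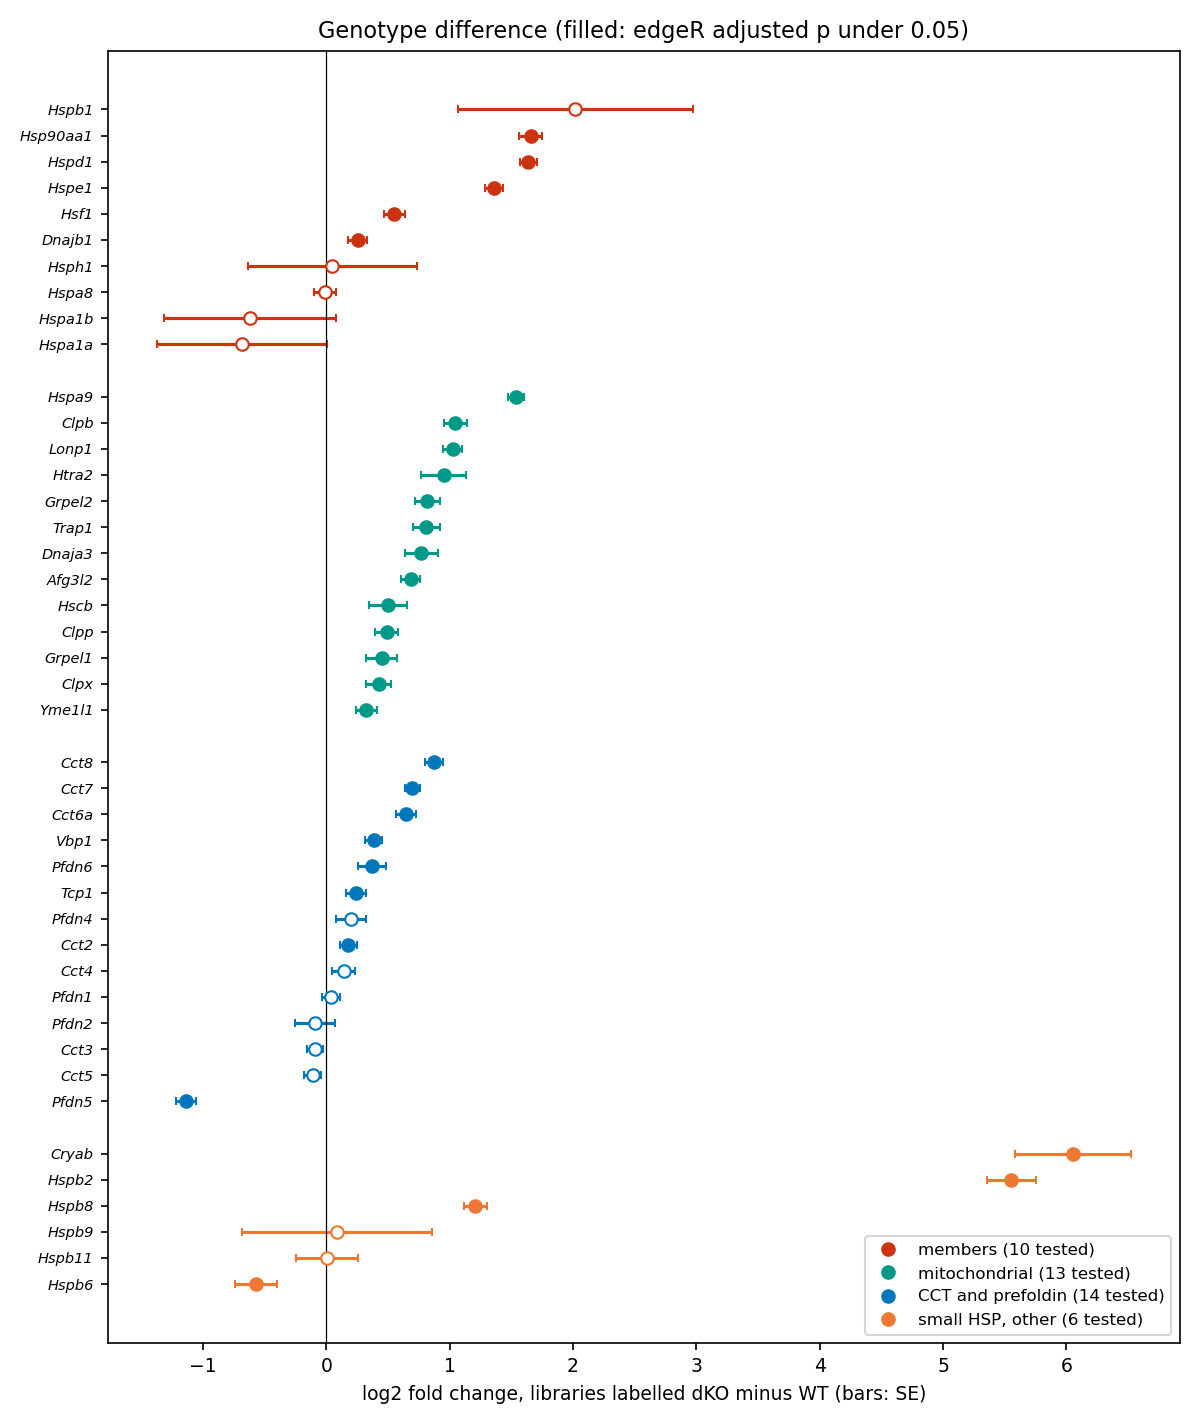
Log2 fold change of the libraries labelled dKO against WT with its SE on the horizontal axis for the 10 members and 3 lists of related genes on the vertical axis, where filled points have an edgeR adjusted p under 0.05. All 13 mitochondrial genes lie above 0 (0.33 to 1.54), and Cryab (6.05) and Hspb2 (5.55) lie farthest to the right.

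Per kilobase of merged exon length, the order of the members differed between genotypes. In WT, Hspa8 was highest at 407 CPM per kb, followed by Hspa1b at 169, Hsp90aa1 at 147, Hspd1 at 144, Hsph1 at 76.8, Hspe1 at 59.6, Hspa1a at 33.4, Dnajb1 at 18.0, Hsf1 at 6.19 and Hspb1 at 0.116. Several of these orders changed between WT libraries. Hspa1b was above Hsp90aa1 and Hspd1 in WT 2 alone, and Hsph1 was above Hsp90aa1, Hspd1 and Hspe1 in WT 2 alone. Hspd1 was above Hsp90aa1 only in WT 2, and Hspa1a was below Dnajb1 only in WT 3. These pairs therefore cannot be ordered. In the libraries labelled dKO, Hsp90aa1 led at 463 CPM per kb, with Hspd1 at 448 and Hspa8 at 405, and their ranges over the libraries overlapped. Hspa8 was the lowest of these in each library labelled dKO. Hsp90aa1 was above Hspd1 in dKO 1 and dKO 2 but below it in dKO 3, so that pair cannot be ordered. Hspe1 followed at 153, Hspa1b at 109.9, Hsph1 at 79.4, Dnajb1 at 21.5, Hspa1a at 20.8, Hsf1 at 9.09 and Hspb1 at 0.489 CPM per kb. Within each library labelled dKO, Hspe1 was above Hspa1b and Hspa1b above Hsph1, the latter by little in dKO 3. Hspa1a was above Dnajb1 and Hsf1 in dKO 1 and dKO 2 but below both in dKO 3. It therefore cannot be ordered against either.

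Beyond the members, 109 of 117 listed genes of the heat shock response and protein folding were tested, of which 52 rose, 18 fell and 39 were not called. Their median log2 fold change was 0.24. Called genes made up 64.2% of them, against 57.3% of all tested genes. That difference goes with depth, since 107 listed genes also passed the filter of at least 50 counts in 3 libraries. At that filter 70 of the 107 were called, beside 64.9% of all genes tested there, so the shares were close. The mitochondrial chaperones and proteases were called as rises in 13 of 13 cases, where 28.6% of all tested genes rose, with a median of 0.77 and a range of 0.33 to 1.54. Hspa9, the mitochondrial HSP70 gene, rose from 320.3 ± 10.8 to 932 ± 34.5 CPM, a difference of 1.54 ± 0.07 on the log2 scale (edgeR adjusted p = 2.85e-07), and so had a size close to those of Hspd1 and Hspe1. Lonp1, which encodes a protease of the mitochondrial matrix, rose from 95.4 ± 1.56 to 194 ± 16.2 CPM. Of 20 other targets of HSF1, 9 rose, 4 fell and 7 were not called (median 0.28).

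The largest rises and falls on those lists lay in several branches. Cryab and Hspb2, small heat shock protein genes that lie head to head and overlap, rose from 3.52 ± 2.03 to 231 ± 57.3 CPM and from 1.1 ± 0.217 to 51.6 ± 8.31 CPM (edgeR adjusted p = 0.000111 and 1.02e-07). Dnajc2, a J-domain gene of the ribosome, rose by 1.64 ± 0.07 and Herpud1, a gene of endoplasmic reticulum stress, by 1.27 ± 0.14 on the log2 scale (edgeR adjusted p = 2.28e-07 and 8e-05). Fkbp5, an HSP90 co-chaperone of steroid receptors, fell by 1.66 ± 0.15, Pfdn5, a prefoldin subunit, fell by 1.13 ± 0.08, and Ahsa2, related to an activator of HSP90, fell by 0.93 ± 0.13 (edgeR adjusted p = 2.12e-05, 4.19e-06 and 0.000367). Bag3 fell by 0.88 ± 0.23 and Hspb6 fell by 0.57 ± 0.17 (edgeR adjusted p = 0.0121 and 0.0174). The fall of Bag3 was smaller without WT 2, at -0.55, and without WT 2 and dKO 3, at -0.47, and its call was lost without dKO 3 (0.0547), as was that of Hspb6 without WT 1 or dKO 2 (0.0741 and 0.0586). Herpud1, Fkbp5, Pfdn5, Ahsa2, Bag3, Hspb6, Hspa9 and Htra2 overlap other annotated genes, so their reads may hold those of a neighbour.

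Among the other lists, 7 of 16 endoplasmic reticulum chaperone genes rose and 4 fell, with a median of 0.05. Hspa5, the gene of BiP, the HSP70 of that compartment, was at 1288, 1349.6 and 1351 CPM across WT 1 to 3 and at 1769.6, 1818 and 1407 CPM across dKO 1 to 3, a difference of 0.32 ± 0.10 on the log2 scale (edgeR adjusted p = 0.02), and the call was lost without WT 1, dKO 1 or dKO 2 (0.0776, 0.0824 and 0.0845). Of 14 tested CCT and prefoldin subunits 7 rose and 1 fell, of 16 cytosolic J-domain genes 7 rose and 2 fell, and of 19 HSP90 genes and co-chaperones 6 rose and 3 fell. Of 8 other HSP70 and HSP110 genes 2 rose and 1 fell. Among the rises was Hspa12a, near the floor in WT (0.324, 0.496 and 0 CPM), which passed the filter through the libraries labelled dKO. Of 10 exchange and partner genes of HSP70 2 rose and 3 fell, and of 6 tested small heat shock protein genes 3 rose and 1 fell. Of 7 genes of the HSF family and its regulators 4 were not tested and 3 rose. Among these was Hsf2bp, which was near the floor in WT (0.264, 0.198 and 0.172 CPM) and so had to be higher to be tested. Cirbp and Rbm3 encode RNA-binding proteins whose mRNAs rise in the cold and drop with heat. Cirbp fell from 93.6 ± 5.53 to 15.3 ± 5.65 CPM, a difference of -2.61 ± 0.24 on the log2 scale (edgeR adjusted p = 3.92e-05), whereas Rbm3 did not pass (0.16 ± 0.11, edgeR adjusted p = 0.242). Rbm3 was lowest in WT 2 (359, 282 and 374 CPM across WT 1 to 3), and Cirbp was highest in dKO 3 among libraries labelled dKO (13.4, 10.8 and 21.6 CPM across dKO 1 to 3).

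Heat shock elements were counted in the RefSeq promoter windows, from 250 bases before to 50 after a start site, as the paired unit GAANNTTC or TTCNNGAA and as the run of 3 units GAANNTTCNNGAA or TTCNNGAANNTTC, each its own reverse complement or that of its partner, so that both strands are covered. A run of 3 holds 2 overlapping pairs. Windows were at hand for 7 of the 10 members, and Hspa8, Hsp90aa1 and Hsf1 had none. A pair was found in 15.1% of all 32851 windows and a run of 3 in 0.603%. Of the 7 members, 6 held a pair in at least 1 window, Hspa1a, Hspa1b, Hsph1, Hspb1, Hspd1 and Hspe1, and 3 a run, Hsph1, Hspd1 and Hspe1, while the 2 Dnajb1 windows held neither. These are not separate finds, since Hspd1 and Hspe1 share their run and the Hspa1 copies are nearly the same sequence. Some members have 2 windows, whereas the shares above are of single windows. A pair was also found in 7 of 17 other HSF1 target genes with a window. It was found in 1 of 8 mitochondrial chaperone and protease genes and in 0 of 7 other HSP70 and HSP110 genes. Of the other listed genes above in WT 2, the windows of Hspa4l and Hspa4 held no match and that of Bag3 held 1 pair past the start site. Htra2, also above there, was not looked up singly. Exact letters were searched, so weaker elements are not counted, and a match is a description of sequence and not a site in use.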

How the data were processed

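The authors deposited estimated counts per gene as whole numbers, not normalized, for 48820 Ensembl identifiers in 6 libraries. The submitters' processing notes name GRCm38 (mm10), StringTie 2.2.1 and HISAT2 2.2.1. How the reads were counted, with which annotation and strand setting, is not given in the sources used here. Values piled up at exactly 4 (678 to 775 genes per library, against 273 to 367 at 5), so a floor of 3 read pairs, or 12 counts, was set after the values were seen. It equals 0.242 to 0.314 CPM, and covers counting error only. Symbols came from GENCODE M21, which matched 48144 identifiers.

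Genotypes were compared with edgeR 4.0.16 (R 4.3.3), with TMM, filterByExpr, robust quasi-likelihood fits and genotype as the only term, at an adjusted p under 0.05. The test was tested on simulated data. The SE is the absolute log2 fold change over the square root of F. Single libraries were described by CPM at least 1.5 times above or below both others of the group, and departures used log2(CPM + 0.25). The members and lists were chosen with earlier results of these data known.

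Named genes were the members, the 5 largest rises and 5 largest falls among called listed genes with 5 CPM in the higher group, the 5 listed genes farthest apart in WT 2 and in dKO 3, the 8 most alike by Pearson r, and Cirbp, Rbm3, Hspa5, Epcam and Krt8. Epcam fell by 1.46 ± 0.07 and Krt8 fell by 0.55 ± 0.12 on the log2 scale (edgeR adjusted p = 4.68e-07 and 0.00404). Of the tested markers, 2 of 8 epithelial rose and 5 fell, and 1 of 4 fibroblast rose and 3 fell. Of the 10 fibroblast markers listed, 0 had a mean of at least 5 CPM in both groups. Further, 3 of 3 leukocyte markers rose (Itgam, at 0 in every WT library, entered through the other group), and the 1 endothelial marker did not pass. Of 14 immediate-early genes 3 rose and 4 fell. The deviations of same-numbered libraries from their groups were weakly correlated (r = -0.10, 0.11 and 0.16). Pairs with unlike numbers ran from -0.20 (WT 2 with dKO 3) to 0.15 (WT 2 with dKO 1). Alternatives were other normalizations, count filters, DESeq2 1.42.0, a replicate block, each library left out, WT 2 and dKO 3 left out, and counts divided by 4.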

Additional observations from a re-analysis of the deposited data

How the results depend on the processing

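Depth limits Hspb1 alone among the members. The count of 5 members called was 5 under RLE normalization, total counts, both count filters, DESeq2, counts divided by 4 and the replicate block, ran from 4 to 5 with 1 library left out, and was 7 without WT 2 and dKO 3. The replicate block changed no member's call and gave 8658 called genes in place of 9060, of which 8493 were shared. The numbers pair the libraries only by name, and the correlations of same-numbered libraries were -0.10, 0.11 and 0.16. Over all genes the count ran from 8041 to 9120 with 1 library left out and from 8420 to 10139 under the other alternatives, and over the other listed genes from 58 to 71 and from 69 to 82 against 70. Of 138 alternative log2 fold changes of members, 122 kept direction and side of the threshold. Reversals fell on members without a call. With 1 library left out, Hspa1a ran from -1.02 to 0.0768 and Hspa1b from -0.95 to 0.16, both above 0 without WT 2, and without WT 2 and dKO 3 they were at 0.44 and 0.52. Hsph1 ran from -0.31 to 0.96, below 0 without WT 1, WT 3, dKO 1 or dKO 2. Hspa8 ran from -0.065 to 0.067, above 0 without WT 2 or dKO 3, and was at 0.0065 with total counts and 0.12 without both libraries. Rbm3 turned to -0.0018 without both. The cause was not tested. The counts of 3 members apart in WT 2 and of 3 in dKO 3 stayed at 3 with other scalings, at 2-fold and against each other library alone.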

Other observations

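Among the 9939 genes with a mean of at least 5 CPM in both groups, 25, or 0.252%, were at least 2 times above both other WT libraries in WT 2 and at least 2 times below both others in dKO 3, and 4 of these were Hspa1a, Hspa1b, Hsph1 and Hspa4l. The 5 of the other 21 with the highest mean in WT, a choice made after their values were seen, were the following. Akr1b3, the aldose reductase gene, was at 325, 1341 and 159 CPM across WT 1 to 3 and at 3652, 3561 and 983 CPM across dKO 1 to 3. Aqp1, a water channel gene, was at 79.1, 224 and 55.4 CPM and at 80.1, 81.7 and 18.8 CPM in the same order. Ptgs2, the cyclooxygenase gene induced in inflammation, was at 76.0, 164 and 60.3 CPM and at 1992, 2032 and 610.2 CPM. Cxcl5, a chemokine gene, was at 54.1, 189 and 32.9 CPM and at 274, 279 and 128 CPM. Nyap1 was at 59.4, 169 and 41.9 CPM and at 125, 122 and 58.1 CPM. The remaining 16 were Atp1b1, Csf1r, Gm38056, Bpgm, Galnt15, Rn7sk, Rab15, Alox12e, Gal3st1, Slc45a3, Pcx, 1700016C15Rik, Chdh, Ptgds, Igfbp7 and Akr1b8.

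Of the 10 immediate-early genes, fast responders to stress and growth factors, with at least 5 CPM in both groups, 1 was at least 1.5 times above both other libraries in WT 2 and 0 below, and 3 were as far below in dKO 3 and 0 above. Of all 9939 genes at that level, 1.84% were above and 1.82% below in WT 2, and 1.76% were below and 0.956% above in dKO 3. The median departure of the 10 genes was -0.16 in WT 2 and -0.27 in dKO 3 on the log2 scale, against -0.02 and 0.01 over all 9939. In WT 2 that median was negative, where Hspa1a, Hspa1b and Hsph1 were positive. The gene above in WT 2 was Dusp1, a phosphatase gene, at 14.6, 58.9 and 11.02 CPM across WT 1 to 3 and at 136, 122 and 62.5 CPM across dKO 1 to 3. Those below in dKO 3 were Dusp1, Ier3 (480.3, 455 and 242 CPM across dKO 1 to 3) and Fosb (6.75, 5.97 and 3.37 CPM).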
